A study of Mus musculus with 6 samples.

Results

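Shox2 and 6 genes beside it on mouse chromosome 3 (Rsrc1, Mlf1, Gfm1, Lxn, Veph1 and Ptx3) were followed in RNA sequencing libraries of the embryonic palate. The genes were picked by symbol, and all 7 were found among the 23420 genes of the count tables. The tissue was the part of the palate that goes on to form the anterior hard palate, dissected from C57BL/6 embryos at E14.5. The mutant embryos, Shox2Cre/-;Nkx2.5F/F and titled KO, carried a Shox2-Cre allele opposite a Shox2 null allele. The control embryos, Shox2Cre/+;Nkx2.5F/F, carried the same Cre allele opposite a wild-type Shox2 allele, and are titled WT although they are not wild type. Both groups shared the Cre allele, which is active where Shox2 is expressed, and 2 floxed copies of Nkx2-5. There were 3 libraries in each group. The labels count 3 mice a group and do not mention pooling or separate litters, so the spread behind the p-values may be partly technical. The comparison asks what the loss of the remaining Shox2 allele changes, here at the Shox2 locus itself and at the genes around it.

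Shox2 encodes a homeodomain transcription factor. In the mouse it marks the anterior palatal mesenchyme and is also needed in the proximal limb and the sinoatrial node. In the mouse limb its enhancers are spread over a large stretch of chromosome 3 in which other genes also lie. Those genes have functions unrelated to that of Shox2: Rsrc1 encodes an arginine- and serine-rich protein of pre-mRNA splicing, Gfm1 an elongation factor of mitochondrial translation, Mlf1 a myeloid leukaemia factor found in ciliated cells, Lxn the carboxypeptidase inhibitor latexin, Ptx3 the secreted long pentraxin of innate immunity and hyaluronan-rich matrix, and Veph1 a PH domain protein first described in the ventricular zone of the brain.

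In GENCODE M21 on GRCm38, Shox2 lies at chr3:66971727-66981771 on the minus strand. Rsrc1 (chr3:66981390-67358396, plus strand) has its outermost start site in GENCODE M21 at -0.4 kb from that of Shox2 and is read in the opposite direction. The RefSeq promoter windows of Rsrc1 (chr3:66985412-66985711 and chr3:66985717-66986016) place its start sites beyond Shox2, on the side into which Rsrc1 extends. Next on that side come Mlf1 (chr3:67374097-67400003, plus strand), Gfm1 (chr3:67430096-67476529, plus strand) and Lxn (chr3:67457998-67463926, minus strand), with start sites 392.3, 448.3 and 482.2 kb from that of Shox2. On the other side lie Veph1 (chr3:66053558-66296837, minus strand) and Ptx3 (chr3:66219910-66225805, plus strand), with start sites at -684.9 and -761.9 kb. These 7 genes overlap in 3 pairs on opposite strands. Lxn lies wholly inside Gfm1, and their exons share 63 bases. Ptx3 lies wholly inside Veph1 and shares no exonic base with it. In GENCODE M21, exons of Shox2 and Rsrc1 share 153 bases, which is 4.62% of the exonic length of Shox2 and 1.27% of that of Rsrc1. Neither the strand setting nor the annotation behind the counts is known here, so reads from shared bases cannot be assigned to either gene of a pair.

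Total counts were 52668242 to 53331397 in the mutant libraries and 81950407 to 134813429 in the control libraries, so depth and genotype coincide. Mutants and controls lay apart on the first principal component (78.4% of the variance), and mutant replicate 1 lay apart from the other mutants on the second (8.45%). Of the counts from 5 to 50, 99.7% were even numbers in mutant replicate 1, against 63.6% to 73% in the other 5 libraries. Mesenchymal markers were present in every library, with a summed level over 7 genes of 10600 to 11500 CPM (counts scaled to a common library size with TMM factors) in mutants and 7260 to 12900 CPM in controls. Of these 7 markers, edgeR called 3 lower (Prrx2, Twist1 and Pdgfra) and 0 higher, with a median log2 fold change of -0.33. DESeq2 called 4 lower and 1 higher. With a covariate for Y-linked genes 1 was lower and 1 higher. Markers of several other cell types also moved with genotype. The summed level of 10 epithelial markers was 5280 to 5940 CPM in mutants and 1010 to 1700 CPM in controls, that of 8 macrophage markers 335 to 445 CPM in mutants and 76.9 to 136 CPM in controls, and that of 5 osteoblast markers 182 to 373 CPM in mutants and 703 to 2950 CPM in controls. All 10 epithelial and all 8 macrophage markers were called higher, and all 4 tested osteoblast markers were called lower. Of all genes tested, 24.1% were called higher and 21.7% lower. Of the osteoblast markers, 1 was called lower with a covariate for Y-linked genes, 2 without control replicate 2, 2 without mutant replicate 2, and 3 with upper quartile or library size scaling. The summed level of 6 muscle markers was 1.09 to 1.81 CPM in mutants and 3.99 to 56.8 CPM in controls, and that of 6 neural and glial markers was 35.6 to 56.8 CPM in mutants and 66.2 to 126 CPM in controls. None of the 6 endothelial markers was called by edgeR (nor at an unadjusted p under 0.05), DESeq2 or limma-voom, with a summed level of 460 to 628 CPM in mutants and 394 to 519 CPM in controls, although 2 were called higher without mutant replicate 1. The summed level of 4 Y-linked genes was 199 to 244 CPM in mutants and 36.2 to 192 CPM in controls. Of these 4, edgeR called 0 (1 at an unadjusted p under 0.05), DESeq2 1 and limma-voom 3.

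Of the 7 genes, 4 fell in the mutants (Shox2, Rsrc1, Lxn and Ptx3), 1 rose (Mlf1) and 2 did not pass the test (Gfm1 and Veph1). The test was edgeR's quasi-likelihood F test with Benjamini-Hochberg adjustment over 16604 genes, with a threshold of 0.05 for the adjusted p. In the same test 45.8% of all genes were called, 24.1% higher and 21.7% lower, so a call alone does not set a neighbour apart. Called and changed over 2-fold were 1 gene higher (Mlf1) and 2 lower (Shox2 and Ptx3), beside 13.9% higher and 3.39% lower over all genes. The mutant and control libraries did not overlap for any of the 7 genes, with 2 higher and 5 lower, but this was also true of 58.9% of all genes tested, 29.7% higher and 29.2% lower. The sizes of the changes ranged from an 18.9-fold fall to a 4.77-fold rise. The largest fall (Shox2) and the rise (Mlf1) belong to genes whose start sites are 392.3 kb apart. In bulk tissue, fewer cells of a type and less RNA per cell cannot be told apart.

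**Figure D1:**
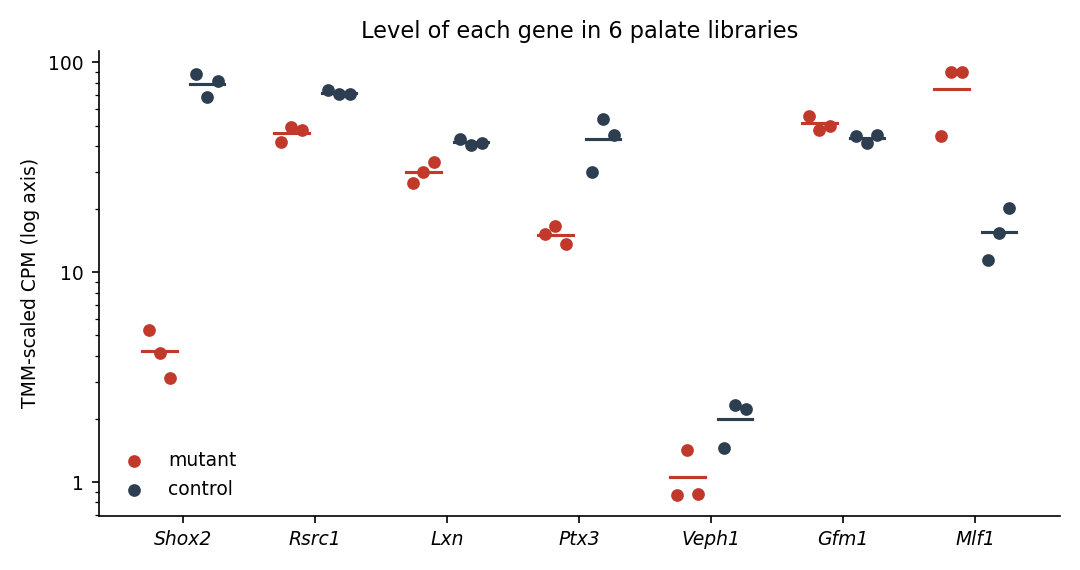
TMM-scaled CPM of the 7 genes on a log axis, with 1 point per library (replicates 1 to 3 from left to right), mutants in red left of controls in dark blue, and bars at the group means. Shox2 lies between 3.13 and 5.3 CPM in the mutants and between 68.2 and 88.2 CPM in the controls, and for Gfm1 the gap between the groups is small.

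Shox2 was the gene targeted by the design. It was measured at 5.3, 4.12 and 3.13 CPM in mutant replicates 1, 2 and 3, against 88.2, 68.2 and 81.7 CPM in control replicates 1, 2 and 3. The lowest control was 12.8-fold above the highest mutant, and no other of the 7 genes had such a gap. The mutant mean was 4.19 ± 1.09 CPM and the control mean 79.3 ± 10.2 CPM (SD, n = 3 each), so that the mutants kept 5.28% of the control level. On the log2 scale the difference was -4.24 (SE 0.21, 95% interval -4.73 to -3.76; edgeR adjusted p = 0.000137). Of the 16604 genes tested, 52 had a lower log2 fold change than Shox2. The remaining signal rested on 292, 223 and 168 counts in the mutant libraries, well above 0. The files give 1 count per gene, so these reads were not assigned to exons or to either allele here. Nkx2-5, floxed in both groups, had 0 counts in the mutants and 12 counts over the 3 controls, too few to be tested.

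Rsrc1, whose start in GENCODE M21 lies beside that of Shox2, fell by a smaller amount. It stood at 41.6, 49.1 and 47.8 CPM in the mutants, against 74.2, 70.3 and 70.8 CPM in the controls. The highest mutant lay below the lowest control, by 1.43-fold. Its log2 fold change was -0.64 (SE 0.08, 95% interval -0.82 to -0.45, edgeR adjusted p = 0.000998), and the mutant mean was 64.3% of the control mean. The count ratio of Shox2 to Rsrc1 was 0.127, 0.0841 and 0.0654 in the mutants, against 1.19, 0.969 and 1.15 in the controls. Shox2 thus changed far more than Rsrc1 in each library. Whether counts from the 153 exonic bases shared in GENCODE M21 entered the Rsrc1 value was not tested.

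Rsrc1 fell together with most other splicing factors rich in arginine and serine. Of 18 such genes, 13 were called lower, 1 higher and 4 were not called, with a median log2 fold change of -0.45 beside 0 for all genes tested. Of all genes tested, 45.8% were called, 21.7% lower and 24.1% higher. The smallest p-values belonged to U2af1, the small subunit of the factor that reads the splice acceptor (log2 fold change -0.67, SE 0.06), Srsf9 (-0.56, SE 0.06), Srsf3 (-0.71, SE 0.08) and Tra2a (-0.63, SE 0.08). Srsf9, Srsf3 and Tra2a encode splicing regulators. The edgeR adjusted p of these 4 lay between 0.000334 and 0.000829. The member called higher was Srrm2, a scaffold of nuclear speckles (log2 fold change 0.39, SE 0.11). Leaving out control replicate 2, control replicate 3 or mutant replicate 2 ended that call, as did a correction for GC content and length and a covariate for Y-linked genes. The log2 fold change of Rsrc1 lies within the range of the list, -0.74 to 0.39.

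Mlf1 rose. It had 44.4, 89.6 and 90.1 CPM in mutant replicates 1, 2 and 3, against 11.4, 15.3 and 20.2 CPM in control replicates 1, 2 and 3. Mutant replicate 1 was the lowest mutant, and it was still 2.2-fold above the highest control. The mutant mean was 74.7 ± 26.2 CPM and the control mean 15.6 ± 4.37 CPM (SD, n = 3 each). The log2 fold change was 2.25 (SE 0.32, 95% interval 1.51 to 2.99, edgeR adjusted p = 0.0015), and 1052 of 16604 genes had a higher one. Its only close relative in the lists, Mlf2, lies on another chromosome and had 231 ± 9.66 CPM in the mutants and 243 ± 9.37 CPM in the controls, a difference of -0.07 on the log2 scale (SE 0.07, edgeR adjusted p = 0.413).

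Markers of multiciliated cells moved with Mlf1. All 14 of these genes were called higher, beside 24.1% of all genes tested, with a median log2 fold change of 3.19. Their summed level was 1080, 1360 and 1260 CPM in mutant replicates 1, 2 and 3, against 55.1, 153 and 231 CPM in control replicates 1, 2 and 3. Both Mlf1 and the marker sum were lowest in replicate 1 of each group, and both were highest among the controls in replicate 3. Macrophage marker sums also were lowest in replicate 1 of each group, at 335, 425 and 445 CPM in mutant replicates 1, 2 and 3 and at 76.9, 136 and 121 CPM in control replicates 1, 2 and 3. The axonemal dynein genes Dnaic1 (log2 fold change 3.9, SE 0.29) and Dnahc9 (5.83, SE 0.45) and the coiled-coil genes Ccdc40 (3.26, SE 0.26) and Ccdc39 (3.12, SE 0.3), which encode rulers of axoneme assembly, had the smallest p-values, with edgeR adjusted p from 0.000236 to 0.000423. Foxj1, the master transcription factor of motile cilia, stood at 304 ± 8.2 CPM in the mutants and 63.5 ± 42.2 CPM in the controls. The part of these cells in the level of Mlf1 was not tested.

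**Figure D2:**
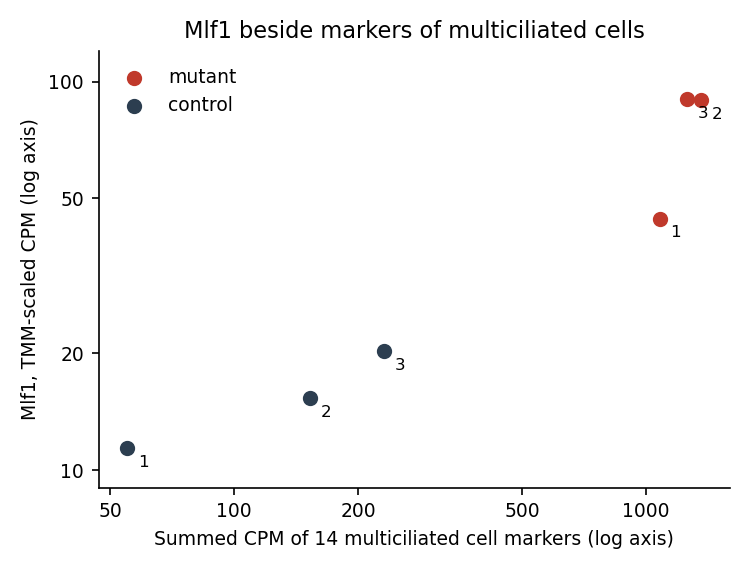
Level of Mlf1 (TMM-scaled CPM) against the summed level of 14 multiciliated cell markers (CPM), both on log axes, with 1 point per library, mutants in red, controls in dark blue and the replicate number beside each point. The 3 mutants have at least 1080 CPM of markers and 44.4 CPM of Mlf1, and the 3 controls at most 231 CPM of markers and 20.2 CPM of Mlf1.

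The promoter of Mlf1 is shown because it holds the letters of 1 arm of the X-box, the element that RFX factors bind in many genes of cilia. The sequence is the RefSeq window of 250 bases before to 50 bases after the start site on GRCm38.p6 (chr3:67373847-67374146, plus strand). Capitals mark GTTGCCAT, which is 1 arm of the inverted repeat of the X-box (the full repeat was not searched) and starts at -105 relative to the start site, and TGACGTCA, the full cAMP response element, which starts at -54.
Mlf1 promoter: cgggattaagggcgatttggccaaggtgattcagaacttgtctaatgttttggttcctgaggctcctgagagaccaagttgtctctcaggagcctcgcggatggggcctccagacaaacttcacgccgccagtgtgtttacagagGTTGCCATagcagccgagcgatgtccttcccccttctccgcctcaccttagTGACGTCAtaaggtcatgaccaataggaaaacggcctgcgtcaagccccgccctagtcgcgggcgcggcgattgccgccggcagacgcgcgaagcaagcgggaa
Searched on both strands and with no overlap between the motifs, GTTGCCAT was found in 1.35% and TGACGTCA in 1.79% of 32851 mouse promoter windows of this length. The letters GTTGCCAT were in none of the other 7 windows of the 7 genes (Rsrc1 has 2 windows). Of 10 multiciliated markers with a window, 2 held them, Tekt1 (chr11:72361879-72361908, minus strand) and Sntn (chr14:13670799-13670828, plus strand). The 30 bases around the match are given for these and for Mlf1 (chr3:67373981-67374010, plus strand), each on the strand of the match with GTTGCCAT in capitals.
Mlf1: tgtttacagagGTTGCCATagcagccgagc
Tekt1: gcgtccgtccgGTTGCCATagagaccgcag
Sntn: gtcattattcaGTTGCCATggaatgaatga
The palindromic paired-class homeodomain motif, TAAT and ATTA with 3 bases between them, which factors of the class of Shox2 can bind as dimers, was in 0.487% of all windows and in none of the 8 windows of the 7 genes. TATAAA, the core of the TATA box, was in 13.6% of all windows and in those of Shox2 and Gfm1. It starts at -203 on the strand of the gene in Shox2. In Gfm1 it lies on the opposite strand, and the base of the match farthest upstream of the gene is at -213. A match describes letters only and shows no binding.

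Gfm1, the next gene beyond Mlf1 among the 7, did not pass the test. It had 55.8, 47.8 and 49.9 CPM in the mutants, against 44.7, 41.2 and 44.9 CPM in the controls. The lowest mutant exceeded the highest control by 1.07-fold, so the groups are separated by less than the spread within the mutants. The log2 fold change was 0.23 (SE 0.08, 95% interval 0.04 to 0.43), with an edgeR adjusted p of 0.0557, while the adjusted p with DESeq2 was 0.0442. Of 9 other translation factors of mitochondria, edgeR, DESeq2 and limma-voom called none higher (nor did edgeR at an unadjusted p under 0.05). The median log2 fold change of these 9 was -0.18. Over all genes tested 45.8% were called, 21.7% lower, so the number of calls alone does not set this list apart. By edgeR 3 of the 9 factors were called lower and 6 were not called. The 3 were Mtrf1l, a release factor (-0.71, SE 0.15), Mrrf, the ribosome recycling factor (-0.4, SE 0.09), and Tsfm, the exchange factor of elongation (-0.44, SE 0.1), with edgeR adjusted p from 0.00731 to 0.00985. For Gfm2, the closest relative of Gfm1, it was 0.06 (SE 0.11) without a call.

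Lxn, nested inside Gfm1 on the opposite strand, fell. Its level was 26.5, 30.1 and 33.5 CPM in the mutants, against 43.2, 40.5 and 41.3 CPM in the controls. All mutants lay below all controls, with 1.21-fold between the nearest libraries. On the log2 scale Lxn differed by -0.47 (SE 0.1, 95% interval -0.71 to -0.24, edgeR adjusted p = 0.00769). The count ratio of Lxn to Gfm1 was 0.475, 0.63 and 0.671 in the mutants, against 0.965, 0.982 and 0.922 in the controls, so the nested gene and its host moved apart in every mutant library. Rarres1, the structural relative of Lxn whose start site is 533.8 kb from that of Shox2, had 0.814 ± 0.454 CPM in the mutants and 0.973 ± 0.297 CPM in the controls (log2 fold change -0.26, SE 0.53). Among the carboxypeptidases of the class that latexin inhibits, Cpa3, a protease of mast cells, rose to 38.9 ± 6.2 CPM in the mutants, against 5.69 ± 3.19 CPM in the controls (log2 fold change 2.77, SE 0.38, edgeR adjusted p = 0.00146). Over the 8 tested genes of that list the median log2 fold change was 0.07.

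Ptx3 had the largest fall among the 6 neighbours. It stood at 15.2, 16.6 and 13.7 CPM in the mutants, against 30, 54 and 45.1 CPM in the controls. Control replicate 1 was the lowest control and was still 1.81-fold above the highest mutant. The mutant mean was 15.1 ± 1.46 CPM and the control mean 43.1 ± 12.1 CPM (SD, n = 3 each). Its log2 fold change was -1.51 (SE 0.21, 95% interval -2 to -1.01, edgeR adjusted p = 0.00148), a value below which lay 373 of the 16604 genes. In the controls, marker sums of several cell types followed the order of Ptx3 or its reverse. The summed osteoblast markers were 703, 2950 and 2440 CPM and the mesenchymal markers 7260, 12900 and 11400 CPM in control replicates 1, 2 and 3, in the same order as Ptx3. Macrophage markers (76.9, 136 and 121 CPM) and endothelial markers (394, 519 and 494 CPM) had that order too, but their sums were not lower in the mutants. Muscle markers (56.8, 3.99 and 17.9 CPM), epithelial markers (1700, 1010 and 1690 CPM) and Y-linked genes (192, 36.2 and 87.5 CPM) ran in the reverse order. Of these, the epithelial and Y-linked sums were higher in the mutants and the muscle sum was lower. The part of any of these marker sums in the fall of Ptx3 was not tested. With control replicate 1 left out, the log2 fold change of Ptx3 was -1.72 (edgeR adjusted p = 0.000378).

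Of 13 other pentraxins and partners of Ptx3 in hyaluronan-rich matrix, 8 were tested. By edgeR 3 were lower and 5 not called, and neither edgeR (also at an unadjusted p under 0.05), DESeq2 nor limma-voom called any higher, with a median log2 fold change of -0.13. Since 45.8% of all genes tested were called, 21.7% lower, the number of calls alone does not set this list apart. Nptx1, a neuronal pentraxin, fell to 1.17 ± 0.257 CPM in the mutants, against 11.5 ± 4.14 CPM in the controls (log2 fold change -3.29, SE 0.32, edgeR adjusted p = 0.000436). Has2, the main hyaluronan synthase of embryonic mesenchyme, had 52.5 ± 4.36 CPM in the mutants and 97.9 ± 12.3 CPM in the controls (-0.9, SE 0.11, edgeR adjusted p = 0.000825), and Nptx2, another neuronal pentraxin, fell as well (-2.14, SE 0.39, edgeR adjusted p = 0.00434). Tnfaip6, whose product binds Ptx3 in hyaluronan matrix, was not called (log2 fold change -0.28, SE 0.15).

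Veph1, the host gene of Ptx3, was the lowest of the 7 genes. It had 0.872, 1.42 and 0.875 CPM in the mutants, against 1.45, 2.32 and 2.23 CPM in the controls. Mutant replicate 2 and control replicate 1 nearly met, with 1.02-fold between them. These values rest on 48, 77 and 47 counts in the mutants and on 117, 234 and 295 counts in the controls. The log2 fold change was -0.92 (SE 0.33, 95% interval -1.7 to -0.14), and the edgeR adjusted p of 0.0559 missed the threshold. Without control replicate 1 it was -1.12 (adjusted p = 0.0329), and without mutant replicate 2 it was -1.19 (adjusted p = 0.0438).

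**Figure D3:**
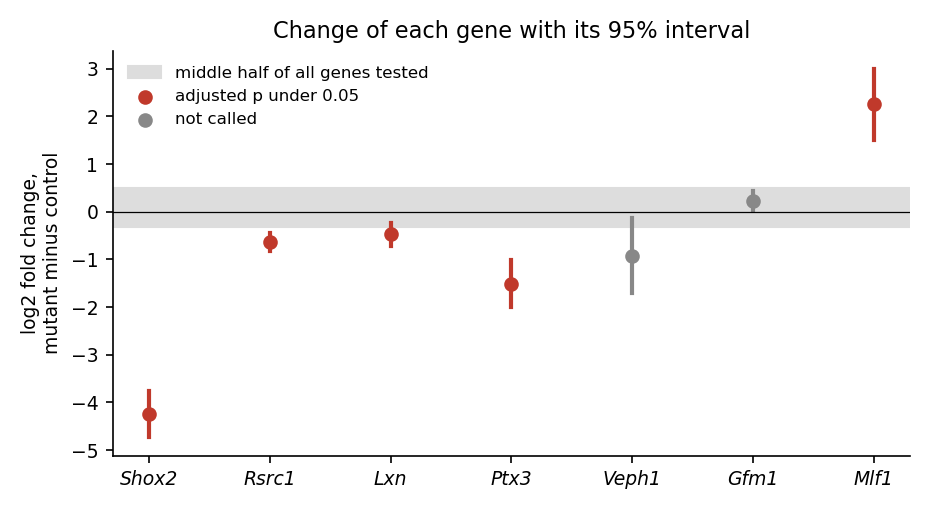
Log2 fold change of each of the 7 genes, mutant minus control, as points with their 95% intervals. Red marks an adjusted p under 0.05 and grey none, and the grey band runs between the quartiles of all 16604 genes tested (-0.32 to 0.49). Shox2, Rsrc1, Lxn, Ptx3 and Veph1 lie below the band and Mlf1 above it, while Gfm1 (0.23) lies inside it.

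The order of the genes by level also differed between the genotypes. Levels were set against each other as CPM per kb of exonic length in GENCODE M21. In the mutants Mlf1 was highest (43.5 ± 15.3 CPM per kb), followed by Lxn (19.9 ± 2.32), Gfm1 (11.6 ± 0.942), Ptx3 (5.65 ± 0.546), Rsrc1 (3.85 ± 0.332), Shox2 (1.26 ± 0.329) and Veph1 (0.149 ± 0.0449). No 2 neighbours in that order overlapped over their 3 libraries. In the controls Lxn was highest (27.6 ± 0.907 CPM per kb), followed by Shox2 (24 ± 3.08), Ptx3 (16.1 ± 4.53), Gfm1 (9.86 ± 0.467), Mlf1 (9.09 ± 2.54), Rsrc1 (5.98 ± 0.175) and Veph1 (0.282 ± 0.0675). There Gfm1 and Mlf1 could not be ordered, since the libraries of Gfm1 lay between 9.33 and 10.2 and those of Mlf1 between 6.66 and 11.7. Ptx3 and Mlf1 overlapped as well, with Ptx3 at 11.2 in control replicate 1 and Mlf1 at 11.7 in control replicate 3. Lxn and Shox2, at 26.8 and 26.6 CPM per kb in their nearest libraries, were barely apart, as were Shox2 and Ptx3 (20.6 and 20.1). Shox2 thus had a level near that of Lxn in the controls and stood below all but Veph1 in the mutants.

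Beyond the 7 genes, 28 genes with a start site within 5 Mb of that of Shox2 were tested, and 4 were called higher and 8 lower. That is 42.9% called, beside 45.8% of all genes tested and 48.5% of the 773 tested genes on the rest of chromosome 3. The share called lower was 28.6% for these 28 genes and 21.7% over all genes, and the median log2 fold change was -0.13 beside 0. Over 2-fold and called were 3 higher and 1 lower, together 14.3%, beside 17.3% of all genes. With the 6 neighbours counted in, 5 of 34 genes were higher and 11 lower. Of those 34, 7 were called lower without control replicate 3 and 7 with a covariate for Y-linked genes. Within 1 Mb only 2 further genes were tested, Rarres1 and Mfsd1, a lysosomal membrane transporter that had 83 ± 6.48 CPM in the mutants and 79 ± 3.12 CPM in the controls (log2 fold change 0.07, SE 0.08). Iqcj, within the same distance, had 1 count over the mutants and 0 over the controls.

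From 1 to 5 Mb, 4 of 26 tested genes were called higher and 8 lower. Plch1, a phospholipase C at -3.08 Mb on the Ptx3 side, rose to 37.4 ± 3.56 CPM in the mutants, against 5.18 ± 0.492 CPM in the controls (log2 fold change 2.85, SE 0.13, edgeR adjusted p = 0.000108). Gpr149, an orphan receptor, rose by 1.37 (SE 0.32), Sptssb, a subunit of serine palmitoyltransferase 2.88 Mb away on the Mlf1 side, by 2 (SE 0.43), and Ift80, a subunit of intraflagellar transport, by 0.59 (SE 0.07). With the Y-linked covariate Gpr149 (adjusted p = 0.064) and Sptssb (log2 fold change 1.25, adjusted p = 0.0716) were not called. The largest fall was that of Schip1, a cytoskeletal partner of the NF2 product, 1.08 Mb from Shox2, with 0.234 ± 0.0235 CPM in the mutants and 0.638 ± 0.0488 CPM in the controls (-1.44, SE 0.35, edgeR adjusted p = 0.013). The call of Schip1 ended when control replicate 3 was left out (adjusted p = 0.0512) and when the Y-linked covariate was added (0.0569). Trim59, a RING finger protein (-0.65, SE 0.09), Gmps, of guanine nucleotide synthesis (-0.57, SE 0.08), Nmd3, an export factor of the large ribosomal subunit (-0.44, SE 0.09), and Ssr3, of the translocon (-0.42, SE 0.11), were also lower. Ssr3 was not called when control replicate 2, control replicate 3, mutant replicate 2 or mutant replicate 3 was left out, with adjusted p from 0.0529 to 0.0687. The GC and length offset (-0.33, adjusted p = 0.0539) and the Y-linked covariate (-0.2, adjusted p = 0.206) also ended the call of Ssr3.

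**Figure D4:**
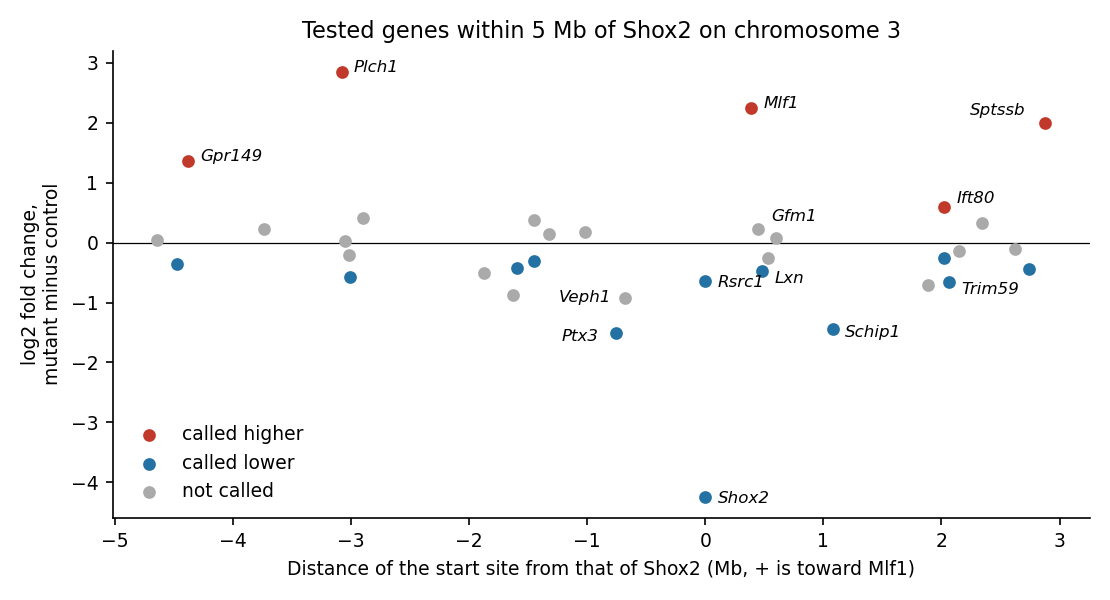
Log2 fold change, mutant minus control, of the 35 tested genes within 5 Mb of Shox2 (vertical axis) against the distance of their start site from that of Shox2 in Mb (horizontal axis, positive toward Mlf1). Red marks genes called higher, blue genes called lower and grey genes not called. Shox2 lies alone at -4.24, and genes of both directions lie on both sides of it.

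Genes tied to Shox2 by earlier work in palate, limb and sinoatrial node moved in both directions. Of 22, 19 were tested, 7 were lower, 2 higher and 10 not called, with a median log2 fold change of -0.32 beside 0 for all genes. Over all genes tested 45.8% were called, 24.1% higher and 21.7% lower, so the number of calls alone does not set this list apart. With library size as the only scaling, or without control replicate 2, 4 were lower. Msx1, the homeobox gene that sustains growth of the anterior palate, averaged 24.2 CPM in the mutants and 101 CPM in the controls (log2 fold change -2.07, SE 0.14, edgeR adjusted p = 0.000229). Pbx2, a homeodomain cofactor, was lower (-0.55, SE 0.07, edgeR adjusted p = 0.0011), whereas Meis1, a partner of PBX proteins, was higher (0.73, SE 0.07, edgeR adjusted p = 0.00046). Isl1, a LIM homeodomain factor that acts with Shox2 in the mouse sinoatrial node, rose to 22.3 ± 1.43 CPM in the mutants, against 6.71 ± 1.9 CPM in the controls (1.74, SE 0.21, edgeR adjusted p = 0.000885).

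Likeness to Shox2 was measured as Pearson's r of log2 CPM over the 6 libraries, a description that the split into 2 genotypes dominates. Of 12990 genes with an average log2 CPM of at least 1, 2290 had r above 0.9. The 5 highest were Ap3s2 (0.999), Ilkap (0.999), Timm22 (0.998), Dlx2 (0.998) and Ccdc58 (0.998). Their log2 fold changes ran from -0.23 for Ap3s2 to -2.32 for Dlx2, all smaller in size than that of Shox2. Within 5 Mb the highest was Trim59 (0.976) and the lowest Plch1 (-0.987). Among the 7 genes, Shox2 ran with Rsrc1 (0.95), Ptx3 (0.93), Lxn (0.88) and Veph1 (0.8) and against Mlf1 (-0.96) and Gfm1 (-0.77).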

How the data were processed

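Per the labels, RNA was extracted from dissected palate with a kit for small samples. HISAT2 and StringTie and the builds mm9 and mm10 are named per the submitters' processing notes, and HISAT2 also per the file headers. No source used here gives the counter, its strand setting or the annotation. The deposited values are whole-number read counts per gene symbol, 1 table per library.

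The counts went unchanged into edgeR 4.0.16 under R 4.3.3 (filterByExpr by group, TMM, quasi-likelihood F test, mutant minus control, no covariate, adjusted p threshold 0.05). Levels are TMM-scaled CPM. Standard errors were the size of the log2 fold change over the root of F. Alternatives used DESeq2 1.42.0, limma-voom (limma 3.58.1), other scalings, filters, covariates and subsets of libraries. Log2 CPM used a prior count of 2. The test was tried on simulated data. Intervals cover the spread between libraries only.

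Symbols were matched to GENCODE M21 directly or through RefSeq synonyms (98.3% of 23420). Promoters are from RefSeq (GRCm38.p6), found for all 7 genes. The genes and lists were chosen with earlier results of these data known. Genes were named by rule: all 7 genes, tested genes within 1 Mb, up to 5 rises and 5 falls from 1 to 5 Mb, up to 4 called members of a list with the smallest p, and the 5 genes most like Shox2. Srrm2, Gfm2, Tnfaip6, Foxj1, Iqcj, Tekt1 and Sntn were named after their values were seen. A member of the Lxn list is not reported here.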

Additional observations from a re-analysis of the deposited data

How the results depend on the processing

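The calls of Shox2, Rsrc1, Mlf1, Lxn and Ptx3 and their directions held under all 19 alternatives, with log2 fold changes of -4.45 to -4.07, -0.69 to -0.55, 2.06 to 2.52, -0.56 to -0.37 and -1.72 to -1. The smallest change of Ptx3, -1, came with the mean level of Y-linked genes as a covariate. Gfm1 and Veph1 lay at the threshold. Gfm1 was called higher with DESeq2 (0.23), upper quartile factors (0.27), library size only (0.3), the 1 CPM filter (0.26), counts halved (0.24), counts thinned to the shallowest library (0.25) and the GC and length offset (0.26), and with single libraries left out it ranged from 0.16 to 0.28. Veph1 was called lower with DESeq2 (-0.92) and without replicate 1 of both groups (-0.99), and ranged from -1.19 to -0.8 with single libraries left out. With the Y-linked covariate 5042 genes were called in all, 2321 of them lower, and within 5 Mb of Shox2 10 were called, 3 higher and 7 lower. With single libraries left out, 7 to 12 genes within 5 Mb were lower. Of the genes tied to Shox2, 4 were lower with library size only, and 4 to 7 with single libraries left out. Of the splicing factors 2 were higher with DESeq2, upper quartile factors, library size only, the 1 CPM filter and without replicate 1 of both groups, 0 with the GC and length offset and with the Y-linked covariate, and 0 to 2 with single libraries left out (2 without control replicate 1). In the Lxn list 2 were higher with DESeq2, upper quartile factors, library size only, the 1 CPM filter, halved or thinned counts, the replicate block and without replicate 1 of both groups, and 1 to 2 with single libraries left out (2 without control replicate 3 or mutant replicate 1). In that list 0 were lower with upper quartile factors, library size only, the GC and length offset, the Y-linked covariate, the replicate block and without replicate 1 of both groups, and 0 to 1 with single libraries left out. In the Ptx3 list 1 was higher with the Y-linked covariate and without replicate 1 of both groups, and 0 to 1 with single libraries left out (1 without mutant replicate 1). The cause of these shifts was not tested.

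Whether the replicate numbers shared by the titles pair the libraries was not settled. The deviations of same-numbered libraries from their group means correlated only weakly, at 0.081, 0.082 and 0.02 for numbers 1, 2 and 3. Between libraries of different numbers the values ran from -0.092 to 0.048. Still, 5 of 6 libraries correlated best with their own number, so a weak pairing remains possible. With the replicate block 5 of the 7 genes were called and 7022 genes in all. Of the Shox2, Rsrc1, Mlf1, Gfm1, Lxn, Veph1 and Ptx3 calls, none changed under the block. Low counts were even more often than odd, so single counts may not be independent, and depth limits Veph1 most among the 7 genes.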

Other observations

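The genes whose level over the 6 libraries was most like that of each neighbour were looked up after the values of the report were seen, as a description without a test. Mlf1 ran closest with Cetn4, a centrin of ciliated cells (Pearson's r 0.999), which had 20.3 CPM in the mutants and 3.54 CPM in the controls. Nmb, Tfeb and Dhdh (each 0.998) and Aldh3a2 (0.997) were the others among its 5 highest. With Mlf1, 1918 of 12990 genes had r above 0.9, so a high r alone does not single out a gene. Within 5 Mb of Shox2, Mlf1 ran closest with Ift80 (0.964), the gene of intraflagellar transport. Ptx3 ran closest with Fez2 (0.999), and Pcolce2, an enhancer of procollagen processing, was among its 5 highest (0.997), with 3.74 CPM in the mutants and 20.8 CPM in the controls. For Lxn the highest was Rps13, a ribosomal protein gene (0.998), and for Rsrc1 it was Myeov2 (0.999). For Gfm1, 462 genes had r above 0.9, and for Veph1 265 genes, beside 2290 for Shox2. All these values rest on the same 6 libraries and the same split into genotypes.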
